A study of Mus musculus with 11 samples.

Results

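Immediate early genes are transcribed within minutes of a stimulus, without the need for new protein synthesis, and their transcripts decay quickly. In the eye they are known to respond to light, to neuronal firing, to growth factors and to injury or handling of the tissue. They were read here as 10 genes fixed by name, Fos, Fosb, Junb, Egr1, Egr2, Npas4, Arc, Nr4a1, Ier2 and Dusp1, of the 38393 genes listed in the data. Of these, 9 passed the expression filter, which asks for at least 1 CPM (the count scaled to a library total of 1000000) in at least 5 libraries and left 15767 genes. Egr2 did not pass it.

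The mRNA was sequenced from whole eyes of C57BL/6 mice (C57Bl/6J in the study's methods) aged 1 to 2 months, with lens and cornea removed, so that retina, retinal pigment epithelium, choroid, sclera and ciliary body remained. There were 5 libraries from wild type (WT) mice and 6 from miR-211-/- (KO) mice, which lack the precursor of the microRNA miR-211 in every cell. The WT mice were littermates of KO mice of the same age, per the study's methods. The sources used here name no other allele and no treatment of these mice. The KO mice were all male and the WT mice were of both sexes, with no sex given per library, so that sex and genotype cannot be told apart in full. The lighting and the hour before sampling are not given in the sources used here.

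The libraries also fall into 2 series by the column names of the study's own expression table, and whether these were sequencing or breeding batches is not stated. WT libraries 1 and 2 and KO libraries 1, 2 and 3 (WT1, WT2, KO1, KO2 and KO3) are named there by a mouse number and are called the mouse-number series. WT3, WT4, WT5, KO4, KO5 and KO6 are named by age and are called the age series. Between 20282241 and 36317673 counts were assigned per library, so that a single read is worth between 0.0275 and 0.0493 CPM. The deleted precursor, Mir211, had 0 counts in every library and was too short to be a check of the labels in this kind of library. Its host gene Trpm1 stood between 331 and 496 CPM in WT and between 413 and 465 CPM in KO.

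WT1 and WT4 stood apart from the other libraries. In WT1 the 8 markers of retinal ganglion cells, the output neurons of the retina, summed to 193 CPM, against 582 to 846 in the others. The 7 microglia and macrophage markers summed to 186 CPM in WT1, against 82.0 to 107. Lcn2, an acute phase gene, was at 80.1 CPM in WT1 and between 2.40 and 5.66 elsewhere. In WT4 the lens markers, mostly crystallins, summed to 118100 CPM, although the lens had been removed. They also summed to 24650 CPM in KO3 and 3203 in KO6, against 5.61 to 98.5 in the remaining libraries. In bulk samples, fewer cells of a type and less RNA per cell cannot be told apart. The rod markers summed to 26980 CPM in WT1 and to between 31630 and 42690 in the others. The corneal keratin Krt12 was at 4.26 CPM in WT1 but between 406 and 3514 in the others, although the cornea had been removed. Aldh3a1 was lowest in WT1 too. Krt13, Krt14, Krt15, Krt4 and Krt19 of the same list were instead highest in WT1, with Krt15 at 1591 CPM against 126 to 778. All 9 corneal and conjunctival markers summed to 5026 CPM in WT1 and to between 1368 and 9779 in the others.

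The promoters of such genes are known to hold sites for transcription factors that wait on the DNA and are switched on by kinases. CREB, which calcium and cyclic AMP activate, binds the cAMP response element TGACGTCA, and its shorter core TGACG is also bound. The windows of Fos, Junb and Nr4a1 are shown because many of the results turn on these genes. By the gene spans of Gencode M21, the windows of Fos and Junb lie before the gene and that of Nr4a1 lies within it. These windows are the 250 bases before the RefSeq start (GRCm38.p6). They lie at chr12:85473640-85473889 on the plus strand for Fos, chr8:84978749-84978998 on the minus strand for Junb and chr15:101266596-101266845 on the plus strand for Nr4a1. Capitals mark TGACG, or CGTCA where the core lies on the other strand.
Fos: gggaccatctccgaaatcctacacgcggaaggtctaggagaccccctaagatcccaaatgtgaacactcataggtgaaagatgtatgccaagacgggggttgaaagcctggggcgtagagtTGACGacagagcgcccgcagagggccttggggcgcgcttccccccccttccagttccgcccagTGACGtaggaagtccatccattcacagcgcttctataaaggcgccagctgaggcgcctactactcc
Junb: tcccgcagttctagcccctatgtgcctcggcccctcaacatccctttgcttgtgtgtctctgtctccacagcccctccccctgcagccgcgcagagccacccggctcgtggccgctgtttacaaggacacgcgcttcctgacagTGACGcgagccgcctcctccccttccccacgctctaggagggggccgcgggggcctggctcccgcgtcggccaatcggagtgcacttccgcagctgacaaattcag
Nr4a1: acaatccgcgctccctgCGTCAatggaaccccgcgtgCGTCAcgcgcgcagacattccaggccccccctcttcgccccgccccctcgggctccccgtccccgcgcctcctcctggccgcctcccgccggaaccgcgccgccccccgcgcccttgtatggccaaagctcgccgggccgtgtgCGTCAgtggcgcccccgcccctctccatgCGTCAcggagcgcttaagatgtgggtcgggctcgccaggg

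RefSeq windows were matched by symbol for 7 of the 10 genes, Fos, Fosb, Junb, Egr2, Npas4, Nr4a1 and Dusp1. All 7 held the core TGACG on either strand in at least 1 window, against 19.8% of the 27025 genes with a window. Of the 5 windows of Egr2, 3 held it. Over single windows the share was 17.8% of 32851. In Fos the core began 129 and 66 bases before the start, in Junb 106 bases, and in Nr4a1 233, 213, 69 and 40 bases. The full element TGACGTCA, which contains the core, was found in Dusp1 alone among the 7 genes and in 1.77% of all genes. TATAAA was found in Fos alone and in 14.3% of all genes, the EGR site GCGNGGGCG in Fosb and Nr4a1 and in 5.33%, and the AP-1 site TGANTCA in none of the 7 and in 7.82%. The serum response element, searched by its CArG box, was found in Egr2 alone and in 1.62% of all genes. A match describes the letters of these windows and no match says nothing about a factor.

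Most of the 10 transcripts were present at low to moderate levels. Per transcript length, Dusp1, a phosphatase that switches off MAP kinases, was the highest at 17.5 ± 4.22 FPKM (fragments per kilobase of transcript, scaled to the library total, mean ± SD, n = 11). Junb followed at 14.4 ± 4.40 FPKM, Nr4a1 at 12.8 ± 4.13, Fos at 10.8 ± 3.11 and Ier2 at 9.69 ± 1.90. These genes were close to each other. Junb was above Nr4a1 in 6 of 11 libraries and Fos above Ier2 in 6 of 11, so that the order within these pairs is not beyond their spread. Egr1 stood at 5.84 ± 2.94 FPKM and Npas4 at 2.23 ± 0.601 FPKM, and Egr1 was above Npas4 in all 11 libraries. Fosb (0.878 ± 0.346 FPKM) and Arc (0.757 ± 0.145 FPKM) could not be ordered, with Fosb the higher in 5 of 11. Egr2 was the lowest at 0.237 ± 0.263 FPKM.

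No immediate early gene passed the test between KO and WT across all 11 libraries. With edgeR's likelihood-ratio test and Benjamini-Hochberg adjustment, 0 of the 9 expressed genes passed an adjusted p of 0.1 and 0 had an unadjusted p under 0.05, and edgeR's quasi-likelihood test and DESeq2 also called 0. The background was low as well. Of all expressed genes, 0.00634% passed the adjusted threshold (1 gene) and 2.09% had an unadjusted p under 0.05, so the count of 0 among these genes is near the background. KO and WT overlapped for all 10 genes, and among all expressed genes 0.184% did not overlap. The members' median log2 fold change (KO minus WT) was -0.018, beside 0.0027 for all expressed genes.

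The AP-1 genes encode subunits of the AP-1 transcription factor. Fos, the best known marker of a recent stimulus (ENSMUSG00000021250, chromosome 12, 85473890-85477273 of GRCm38, plus strand), was at 31.7 and 20.2 CPM in WT1 and WT2 and at 17.6, 17.3 and 15.6 in WT3, WT4 and WT5. It was at 19.8, 19.2 and 13.5 CPM in KO1, KO2 and KO3 and at 24.0, 28.9 and 22.1 in KO4, KO5 and KO6. WT1 was the highest of all and KO3 the lowest, and the groups overlapped. The log2 fold change of Fos (KO minus WT) was 0.05 ± 0.23 (SE), with an adjusted p of 1.00 by edgeR and an exact two-sided permutation p of 0.786 over 462 splits. Fosb, its close relative (ENSMUSG00000003545, chromosome 7, 19302696-19310051, minus strand), was at 6.03 CPM in WT1 and between 2.17 and 2.68 in the other WT libraries, and between 2.29 and 4.88 in KO. Its log2 fold change was 0.07 ± 0.32.

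Junb encodes a partner of the FOS proteins (ENSMUSG00000052837, chromosome 8, 84974484-84978718, minus strand). The 3' end of Prdx2 overlaps it on the other strand, and in libraries that do not mark strand reads from the overlap cannot be told apart. Junb was at 43.5 and 29.9 CPM in WT1 and WT2 and at 15.9, 30.5 and 17.5 in WT3, WT4 and WT5. In KO it was at 34.4, 28.3 and 24.0 CPM in KO1, KO2 and KO3 and at 18.1, 22.1 and 21.4 in KO4, KO5 and KO6. The libraries parted by series rather than by genotype, with WT4 as the exception. The log2 fold change between genotypes was -0.15 ± 0.27, with an exact permutation p of 0.784.

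Egr1 and Egr2 encode zinc finger factors that follow growth factor and synaptic signals. Egr1 (ENSMUSG00000038418, on chromosome 18) was at 44.6 CPM in WT1 and at 14.4, 14.4, 16.3 and 16.5 in WT2 to WT5. The 6 KO libraries lay between 12.6 and 20.5 CPM with a median of 14.6. Apart from WT1, all libraries of both genotypes shared this range. The log2 fold change was -0.45 ± 0.31 over all libraries and 0.02 ± 0.17 without WT1, so that its direction rested on this library. Egr2 (ENSMUSG00000037868, chromosome 10, 67535475-67542188, plus strand) had 74 counts in WT1 and between 3 and 17 in each of the other 10 libraries. That is 2.63 CPM in WT1 and between 0.13 and 0.803 elsewhere, levels at which counting error is large. In a fit of all 25763 genes with at least 1 count, of which 0.00776% passed between genotypes, its log2 fold change was -1.17 ± 0.72 and 0.04 ± 0.57 without WT1.

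Nr4a1, an orphan nuclear receptor (ENSMUSG00000023034, chromosome 15, 101254269-101274795, plus strand), was at 48.9 and 26.6 CPM in WT1 and WT2 and at 28.6, 22.5 and 30.0 in WT3, WT4 and WT5. The KO values were 33.8, 24.2 and 15.8 CPM in the mouse-number series and 37.4, 42.5 and 29.6 in the age series. WT1 was again the highest and KO3 the lowest. The log2 fold change was -0.04 ± 0.26. Ier2, a nuclear protein of early growth responses (ENSMUSG00000053560, chromosome 8, 84661331-84662852, minus strand), ranged from 11.1 to 19.8 CPM in WT and from 10.4 to 16.8 in KO, with a log2 fold change of -0.02 ± 0.19. Dusp1 (ENSMUSG00000024190, chromosome 17, 26505590-26562128, minus strand, where Ergic1 and other gene models overlap it) ranged from 27.7 to 47.5 CPM in WT and from 19.7 to 38.9 in KO, with a log2 fold change of -0.15 ± 0.20.

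Npas4 and Arc are the members most closely tied to neurons. Npas4 encodes a bHLH-PAS factor induced by calcium entry through synaptic activity (ENSMUSG00000045903, chromosome 19, 4984355-4990316, minus strand). It was at 5.04 and 5.58 CPM in WT1 and WT2 and at 8.38, 7.53 and 7.63 in WT3, WT4 and WT5. In KO it was at 6.38, 6.40 and 4.53 CPM in the mouse-number series and at 8.16, 9.0 and 10.3 in the age series. Every age library was above every mouse-number library. Arc, which encodes a synaptic capsid-like protein (ENSMUSG00000022602, chromosome 15, 74669083-74672570, minus strand), had the lowest CV within genotype of the 9 over all libraries, though not without WT1, and was between 1.87 and 2.41 CPM in WT and between 1.81 and 3.19 in KO. The log2 fold change between genotypes was 0.13 ± 0.24 for Npas4 and 0.14 ± 0.20 for Arc.

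**Figure D1:**
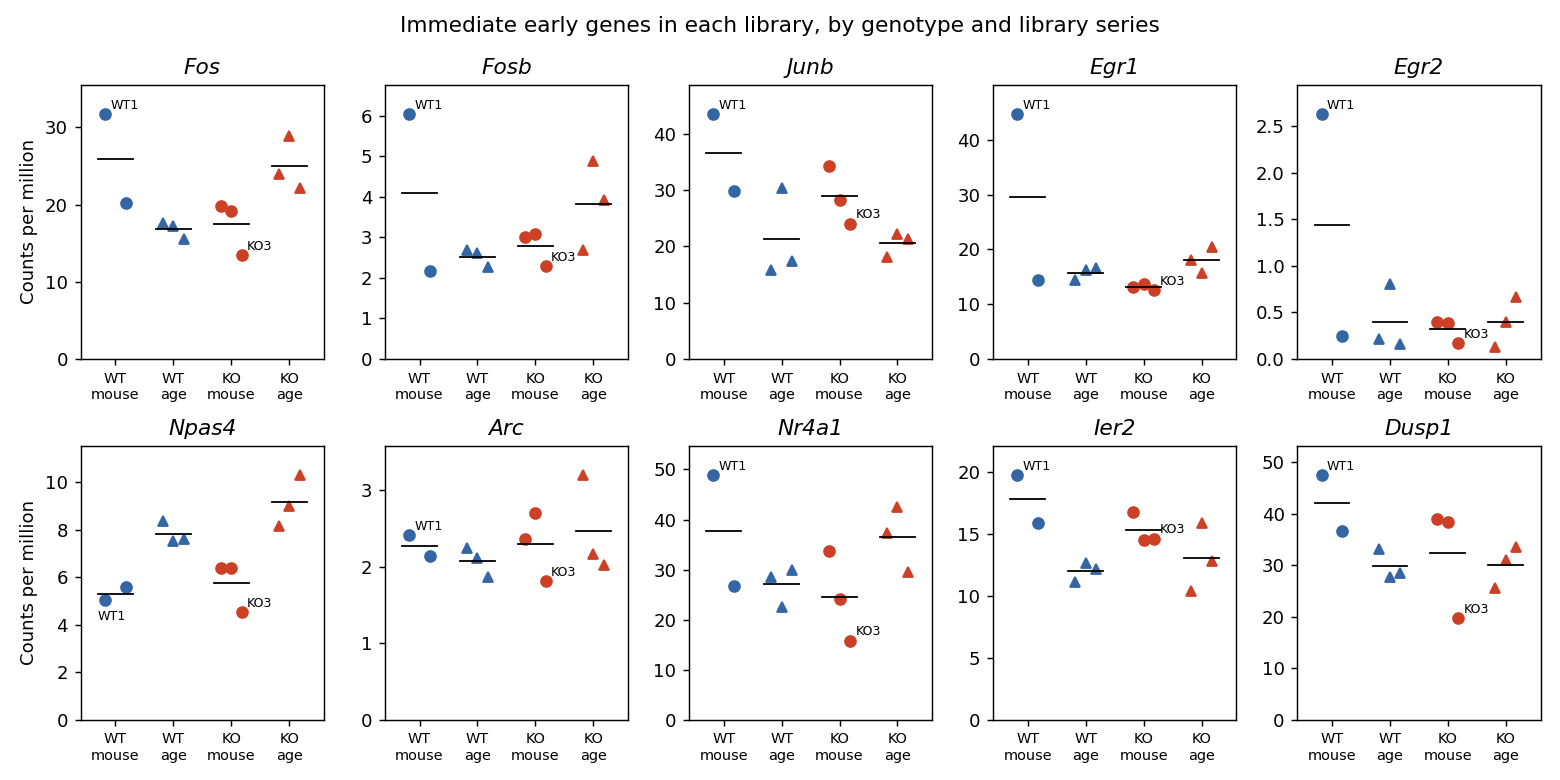
CPM of each of the 10 immediate early genes in the 11 libraries (vertical axis from 0), split by genotype (blue WT, red KO) and library series (circles mouse-number, triangles age), with a bar at the mean of each set. WT1 is the top point in 8 panels, and Npas4 is higher in all age libraries than in all mouse-number libraries.

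The same library led most of the members. WT1 was the highest of the 11 for 8 of the 10 genes, all but Npas4 and Arc. KO3 was the lowest for 6 genes, Fos, Egr1, Npas4, Arc, Nr4a1 and Dusp1. In KO3 the 10 glucocorticoid response genes also summed to their lowest level, 556 CPM, against 1365 in WT1 and 648 to 1095 in the others. The lists of other early genes also had their highest sums in WT1. The other AP-1 and bZIP genes summed to 368 CPM there against 202 to 291. The EGR and NR4A relatives with NAB corepressors summed to 103 against 58.7 to 93.4, and the other early response genes to 1385 against 930 to 1230. Single genes among them were Cebpd at 47.5 CPM against 5.78 to 16.5 and Socs3 at 25.1 against 3.97 to 6.88. Other lists did not have their highest sum in WT1. The heat shock genes summed to 3236 CPM in WT1 against 2876 to 3941, and the hypoxia genes to 1177 against 1103 to 1338. Single genes of these lists went either way. Bag3 (47.6 CPM against 16.2 to 38.7), Dnajb1, Hspe1, Adm and Vegfa (235 against 181 to 215) were highest in WT1. Hsp90aa1 (994 CPM against 1101 to 1590) and Pdk1 were lowest there. The early response gene Dusp4 was lowest in WT1, at 36.4 CPM against 42.1 to 60.7. The part of the cell type markers of WT1 in these levels was not tested.

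**Figure D2:**
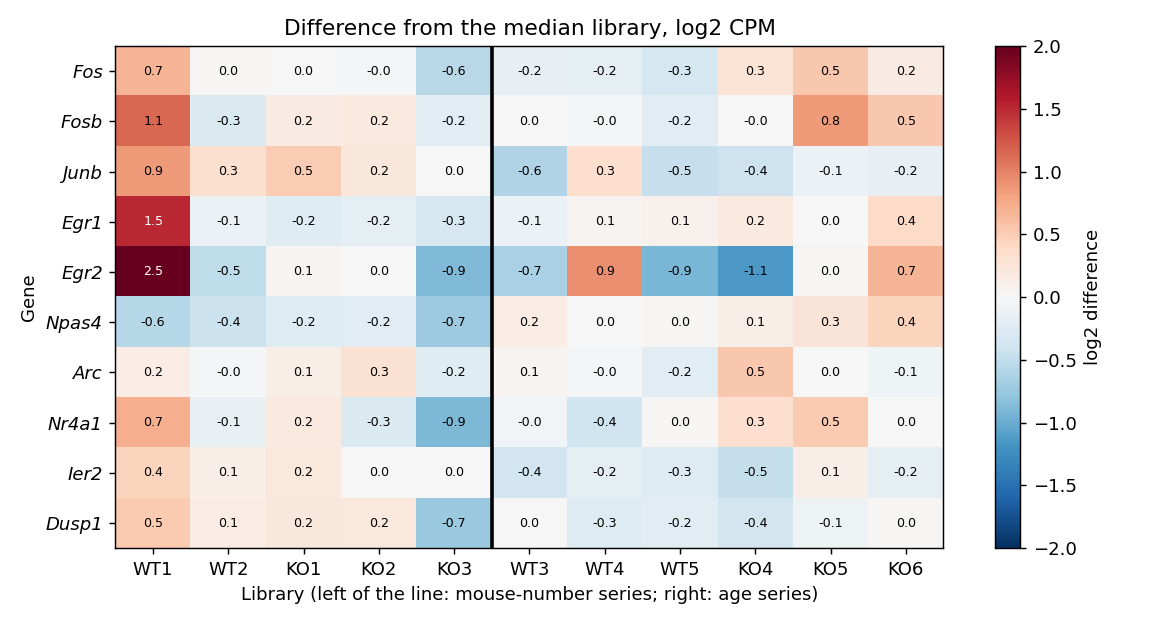
Difference in log2 CPM of each gene (rows) in each library (columns) from that gene's median library, red higher and blue lower, with the mouse-number series left of the line. WT1 is red for all genes but Npas4, and KO3 is blue or near 0 throughout.

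The members were next compared between the library series. With genotype in the fit, 3 of the 9 expressed members passed an adjusted p of 0.1, where 36.3% of all expressed genes did, so this count is near the background. The members' median log2 difference was -0.070, beside -0.0041 for all expressed genes. Npas4 was higher in the age series, as 14.6% of all genes were, and Junb and Ier2 were lower, as 21.7% were. The log2 difference (age minus mouse-number) of Npas4 was 0.62 ± 0.14 (SE), with an adjusted p of 0.000192 by edgeR. Its mean was 8.50 ± 1.04 CPM (SD, n = 6) in the age series and 5.59 ± 0.823 CPM (n = 5) in the mouse-number series. It was the 1 member whose series did not overlap in this direction, which 6.18% of all expressed genes did. The exact permutation p was 0.00216, the smallest that 462 splits can give.

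Junb differed by -0.62 ± 0.19 on the log2 scale, with an adjusted p of 0.00735 by edgeR and an exact permutation p of 0.0152. It averaged 20.9 ± 5.26 CPM in the age series (SD, n = 6) and 32.0 ± 7.40 in the mouse-number series (n = 5). The corneal and conjunctival markers moved with it. All 9 were measured and 7 were lower in the age series by the test, and their sum was 1368 to 7914 CPM in the age series against 5026 to 9779 in the mouse-number series. WT4, the age library with the highest Junb, had the highest sum of its series. The mouse-number series went the other way, as WT1 had the highest Junb (43.5 CPM) and the lowest sum (5026 CPM). All 10 skeletal muscle markers were likewise lower in the age series. Their part in the difference of Junb was not tested.

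Ier2 differed by -0.38 ± 0.14 on the log2 scale, with an adjusted p of 0.0269 by edgeR and an exact permutation p of 0.013. The ranges overlapped, from 10.4 to 15.9 CPM in the age series and from 14.5 to 19.8 in the mouse-number series. Without WT1 the adjusted p of Ier2 was 0.123 and the call was lost, whereas Egr1 passed as higher in the age series (0.35, adjusted p 0.0275 by edgeR), against -0.17 with WT1. Without KO3, Dusp1 passed too, at -0.43 with an adjusted p of 0.00273. For Egr2, in the fit of all genes with at least 1 count, of which 20.8% passed, the adjusted p was 0.517. The remaining members had adjusted p-values from 0.250 to 0.993 by edgeR.

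For Fos, Fosb, Egr1, Egr2, Arc and Nr4a1 the fitted series difference had opposite signs in the 2 genotypes. For Fosb, Egr1, Egr2 and Nr4a1 the sign in WT rested on WT1. WT2 lay below the WT age mean for Fosb (2.17 against 2.52 CPM) and Egr1 (14.4 against 15.7). The same held for Egr2 (0.246 against 0.395) and Nr4a1 (26.6 against 27.0). WT2 lay above it for Fos (20.2 against 16.8) and Arc (2.13 against 2.07). Among KO libraries alone, 4 members passed, where 28.0% of all expressed genes did. Fos (0.53, adjusted p 0.0322 by edgeR), Egr1 (0.47, adjusted p 0.0139) and Npas4 (0.68, adjusted p 0.012) were higher in the age series and Junb was lower (-0.47, adjusted p 0.0274). Among WT libraries alone, 0 members passed by edgeR, where 1.74% of all expressed genes did, and Fos (-0.62) and Egr1 (-0.90) had the other sign without passing. The genotype difference was therefore also taken within each series.

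Within the age series, Fos was higher in every KO library than in every WT library. The means were 25.0 ± 3.48 CPM in KO and 16.8 ± 1.09 CPM in WT (SD, n = 3 each). Among all expressed genes 5.87% were without overlap in this direction. The log2 fold change of Fos was 0.58 ± 0.16 (SE), with an unadjusted p of 0.000386 and an adjusted p of 0.124 by edgeR, which misses the threshold of 0.1. Fosb (0.61 ± 0.30) and Nr4a1 (0.43 ± 0.20) had unadjusted p-values of 0.0435 and 0.028 in the same edgeR fit. Of all expressed genes 4.12% had an unadjusted p under 0.05 and 0.241% passed the adjusted threshold.

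Within the mouse-number series the values leaned the other way. Fos was at 31.7 and 20.2 CPM in WT against 13.5 to 19.8 in KO, a log2 fold change of -0.57 ± 0.29. Egr1 was at 44.6 and 14.4 CPM in WT against 12.6 to 13.7 in KO, a log2 fold change of -1.17 ± 0.46. These were the 2 members without overlap, both lower in KO, as were 10.7% of all expressed genes. Their unadjusted p-values were 0.0461 and 0.00957 and their adjusted p 0.999 by edgeR. Of all expressed genes 3.27% had an unadjusted p under 0.05 and 0.0444% passed after adjustment. WT2 lay much nearer to the KO libraries than WT1 for both genes.

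**Figure D3:**
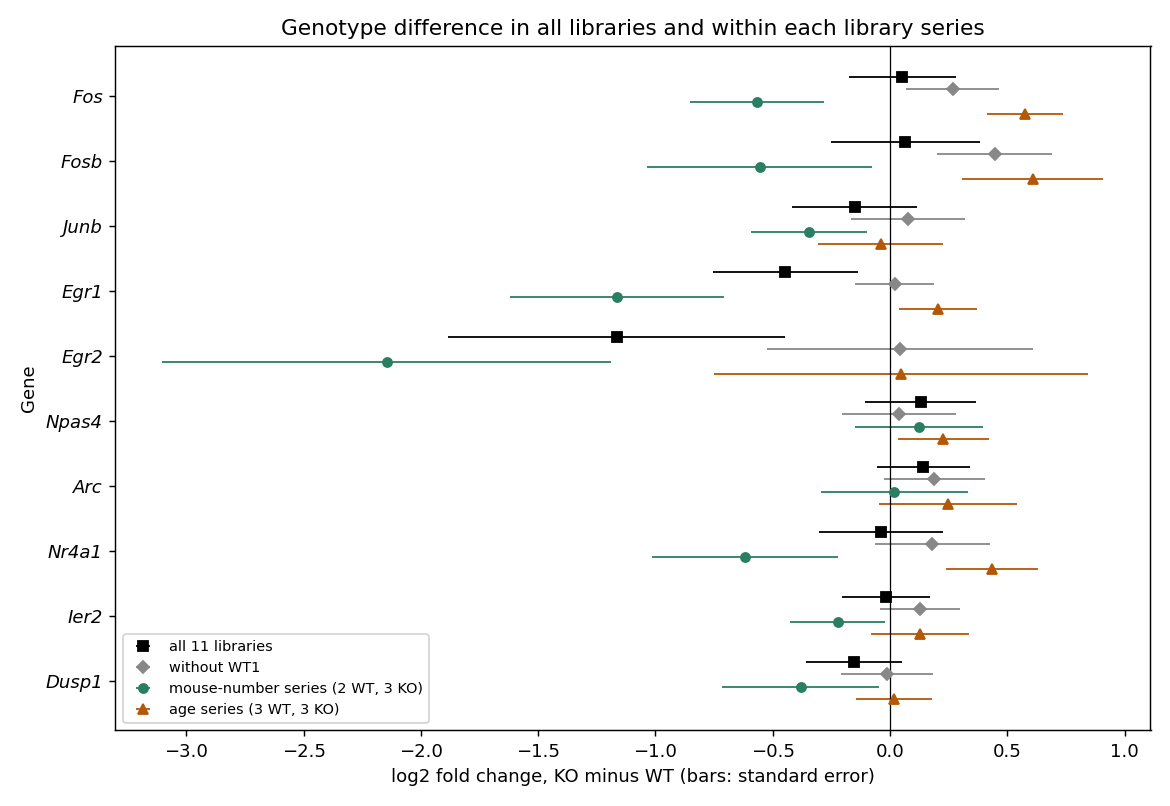
log2 fold change (KO minus WT, horizontal axis) of each gene with its standard error, in all 11 libraries (black), without WT1 (grey), within the mouse-number series (green) and within the age series (orange). For Fos, Fosb, Egr1, Egr2, Nr4a1, Ier2 and Dusp1 the series lie on different sides of 0. In the age series Egr2 (0.047) and Dusp1 (0.017) are barely above it. Leaving out WT1 moves Egr1 and Egr2 to near 0.

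The test of the difference between the series was the interaction of genotype and series. By edgeR's likelihood-ratio test 0 members passed an adjusted p of 0.1, where 0.019% of all expressed genes did, and the quasi-likelihood test called 0. In the fit of all genes with at least 1 count 0.0116% passed, and Egr2 did not. At an unadjusted p under 0.05 there were 4 members, Fos, Fosb, Egr1 and Nr4a1, where 2.71% of all expressed genes reached this level. All 4 had a more positive KO minus WT difference in the age series, as 1.23% of all expressed genes did. The interaction was 1.14 ± 0.32 for Fos (adjusted p = 0.656 by edgeR), 1.16 ± 0.56 for Fosb, 1.36 ± 0.49 for Egr1 and 1.05 ± 0.45 for Nr4a1. Without WT2, which leaves WT1 as the sole WT library of its series, Fos, Fosb and Egr1 passed, with 226 genes in all. WT1 is then assumed to vary like the other groups, which alone give the spread. Without WT1, which leaves WT2 as the sole WT library of its series, the interaction was 0.77 for Fos, 0.24 for Fosb, 0.32 for Egr1 and 0.55 for Nr4a1. These were the lowest values with any library left out, so that the size of all 4 leaned on WT1.

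The members varied more between libraries of the same genotype than most expressed genes did. The coefficient of variation (CV) within genotype was 49.8% for Egr1, 39.8% for Fosb, 33.3% for Junb, 31.9% for Nr4a1 and 27.7% for Fos, beside a median of 13.7% over all expressed genes. Npas4 had 25.5%, Dusp1 23.6%, Ier2 20.4% and Arc 17.5%. All 9 were thus above the median gene, at percentiles from 63.5 for Arc to 93.0 for Egr1. Without WT1 the CV of Egr1 was 16.5% and that of Fosb 25.6%, and the 9 genes stood at percentiles from 62.9 to 84.3. Low counts add to the CV of Arc and Fosb, whose mean levels lay at percentiles 8.45 and 12.4.

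**Figure D4:**
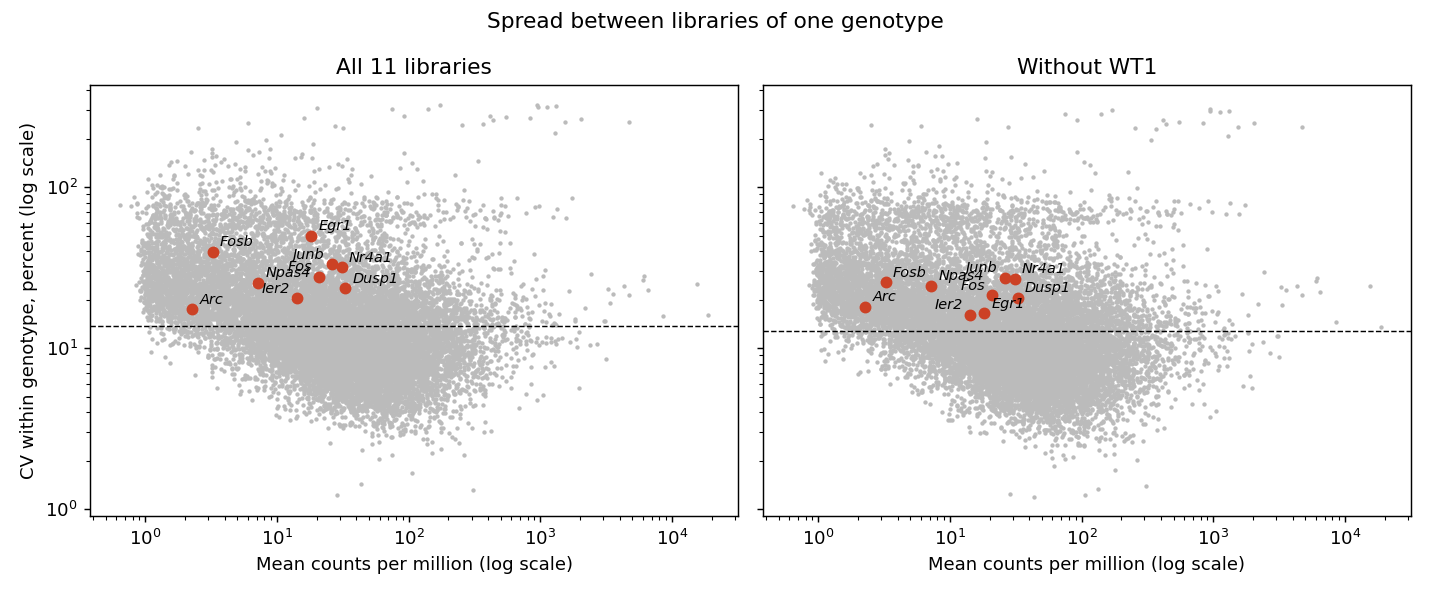
CV of CPM within genotype (vertical, log scale) against mean CPM (horizontal, log scale) for the 15767 expressed genes (grey), with the 9 expressed members in red and the median CV dashed, for all libraries (left) and without WT1 (right). All members lie above the dashed line in both panels, and Egr1 drops from 49.8% to 16.5%.

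The members were also compared with each other over the 11 libraries. Of 36 pairs of expressed members, 31 had a positive Pearson r of log2 CPM, and 3 passed an adjusted permutation p of 0.05 over the 36 pairs. Fos and Nr4a1 had r = 0.883 (permutation p = 0.00036, adjusted 0.013) and Spearman's rho = 0.782 (permutation p = 0.00586, adjusted 0.131). Fos and Fosb had r = 0.847 (permutation p = 0.00103, adjusted 0.0151) and rho = 0.673 (permutation p = 0.028, adjusted 0.265). Junb and Ier2 had r = 0.843 (permutation p = 0.00126, adjusted 0.0151) and rho = 0.773 (permutation p = 0.0073, adjusted 0.131). None of the 36 rho passed after adjustment.

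These 3 relations were checked for single libraries and for the series. Without the 2 libraries farthest from the median of the gene named before the other, r was 0.73 for Fos and Nr4a1, 0.746 for Fos and Fosb and 0.695 for Junb and Ier2. With the mean of each genotype in each series removed, r was 0.865, 0.831 and 0.629. Within the 6 age libraries it was 0.806, 0.834 and 0.485, and the mouse-number series holds too few libraries for a value. The difference between these values and those over all libraries was not tested. Without WT1, over 10 libraries, 0 of the 36 pairs passed and the 3 values of r were 0.833, 0.756 and 0.757. Of the 8 pairs with Npas4, 4 were negative, the lowest with Junb (r = -0.612, permutation p = 0.0459, adjusted 0.177). With the mean of each genotype in each series removed, 1 of the 8 was negative and the value with Junb was 0.133. Without WT1, 2 of the 8 were negative, and the value of Npas4 with Egr1 went from -0.090 to 0.813.

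**Figure D5:**
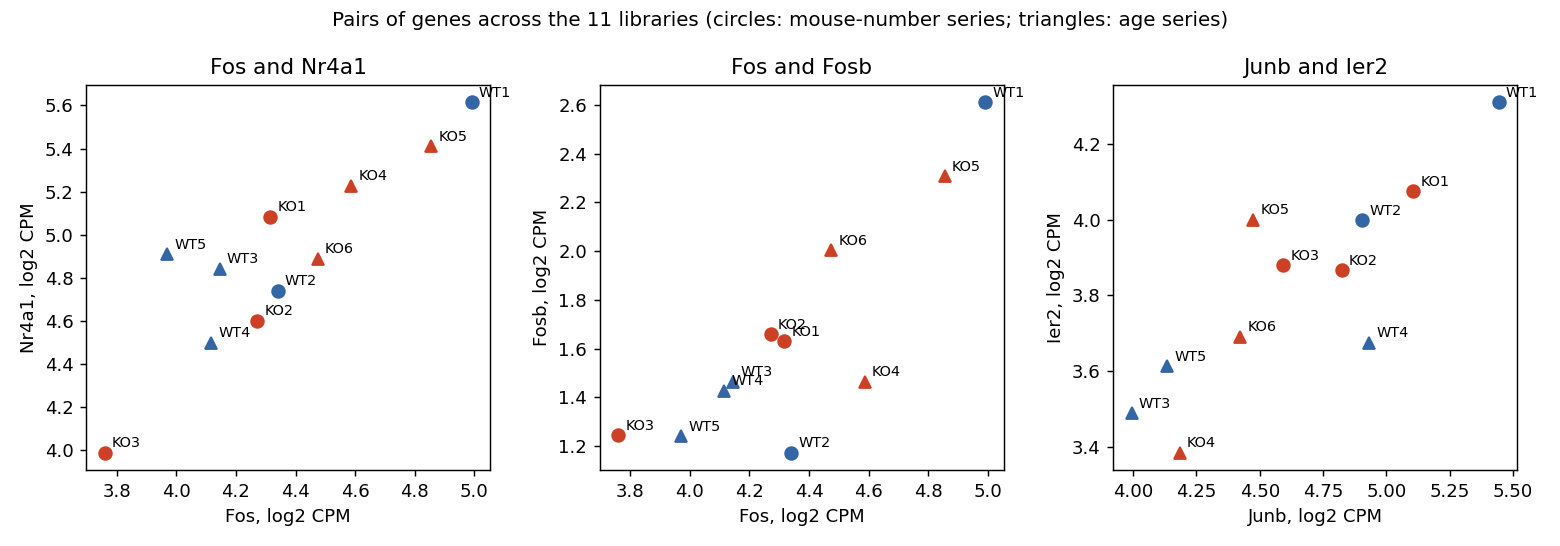
log2 CPM of Nr4a1 and Fosb against Fos, and of Ier2 against Junb, a point per library (blue WT, red KO, circles mouse-number series, triangles age series). WT1 is the top right point in all 3 panels, and Fos and Nr4a1 rise together also without it (r = 0.833).

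The 5 non-members most like Fos over the 11 libraries, by Pearson r of log2 CPM, were Tmco6 (0.931), Arid5a (0.89), Hgh1 (0.888), Eif2b4 (0.882) and Stk40 (0.877). For their level they varied less than Fos, which ran from 13.5 to 31.7 CPM. Tmco6 ran from 10.01 to 12.5 CPM, Eif2b4 from 33.2 to 40.8 and Arid5a from 8.16 to 14.3. Among all expressed genes Nr4a1 ranked 4 and Fosb 15 in likeness to Fos, whereas Junb ranked 2378 and Npas4 4244. Ier2 ranked 1268 in likeness to Junb, so that many other genes were more like Junb than Ier2 was. These values are a description over libraries that share their series and depth.

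The relatives of the members were read from lists. The counts between series stand beside 21.7% of all expressed genes lower and 14.6% higher in the age series, and those at an unadjusted p between genotypes beside 2.09%. Of 9 expressed other AP-1 and bZIP genes, 0 passed between genotypes after adjustment and 1 had an unadjusted p under 0.05. This was Cebpd, an inflammatory bZIP factor, at -0.85 ± 0.40, and WT1 was its highest library. Between series 4 of the 9 were lower in the age series and 0 higher. They were Cebpb (-1.19, adjusted p 0.00173 by edgeR), the FOS relative Fosl2 (-0.90, adjusted p 0.00281), and the small MAF genes Maff (-0.92) and Mafk (-0.60). The list's median was -0.39, beside -0.0041 for all expressed genes. Jun, the main partner of FOS, had -0.23 with an adjusted p of 0.153 by edgeR.

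Of 4 expressed EGR and NR4A relatives and NAB corepressors, 0 had an unadjusted p under 0.05 between genotypes. Between series 3 were lower in the age series, the EGR corepressors Nab1 (-0.39) and Nab2 (-0.29) and the nuclear receptor Nr4a3 (-0.97, adjusted p 0.049 by edgeR). Nr4a3 averaged 7.98 ± 3.49 CPM in the age series and 15.1 ± 8.47 in the mouse-number series. Nr4a2, the remaining gene, did not pass.

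Among 34 other expressed early response genes, 1 had an unadjusted p under 0.05 between genotypes. Ccn2, a secreted matrix protein, had a log2 fold change of -0.58 ± 0.19 (unadjusted p = 0.00248 and adjusted p = 1.00 by edgeR), with WT1 at 218 CPM and the others between 74.3 and 156. Between series 15 of the 34 were lower in the age series and 2 higher, with a median of -0.28, where 21.7% of all expressed genes were lower and 14.6% higher. Markers of other tissues were lower there too, 7 of 9 for cornea and conjunctiva, 10 of 10 for skeletal muscle and 8 of 8 for adipocytes. Their part in these counts was not tested. The 4 with the smallest p were Klf6 (-0.56), Tiparp (-0.55), Ier5 (-0.59) and the survival gene Mcl1 (-0.48). Klf6, a zinc finger factor, averaged 37.1 ± 6.41 CPM in the age series and 53.6 ± 6.69 in the mouse-number series.

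Of 10 expressed later genes of neuronal activity, 4 were higher and 1 lower in the age series, with a median of 0.34, where 14.6% of all expressed genes were higher and 21.7% lower. Vgf, a neuropeptide precursor, had 0.59 ± 0.15, the secreted pentraxin Nptx2 0.35 ± 0.11 and Syt4, a synaptotagmin, 0.38 ± 0.13. Rheb, an activator of mTOR signalling, was the gene that was lower (-0.27 ± 0.068). Between genotypes 0 of the 10 had an unadjusted p under 0.05. Some retinal neuron markers moved the same way. Of the 8 retinal ganglion cell markers 3 were higher in the age series and 0 lower, with sums of 595 to 846 CPM there. In the mouse-number series the sums were 193 CPM in WT1 and 582 to 611 in the other libraries. Of the 8 amacrine and horizontal cell markers 4 were higher and 1 lower. Of the 8 bipolar cell markers 3 were higher, and of the 8 rod and the 8 cone markers 1 each, with 0 lower. Their part in the values of Npas4 and the later genes was not tested.

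The signalling genes upstream showed no common direction. Of 22 expressed kinases, CREB and SRF pathway genes, 3 were higher and 3 lower in the age series. The CREB coactivators Crtc1 (0.42 ± 0.091) and Crebbp (0.62 ± 0.13) were higher, and the SRF partner Elk3 (-0.53 ± 0.14) and the kinase Rps6ka1 (-0.39 ± 0.11) were lower. Between genotypes 0 of the 22 had an unadjusted p under 0.05.

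The lists of handling, stress and time of day were read beside them, again against 21.7% of all expressed genes lower and 14.6% higher in the age series. Of 11 heat shock genes, 4 were lower in the age series, the mitochondrial chaperonins Hspd1 (-0.39) and Hspe1 (-0.29), the co-chaperone Bag3 (-0.78) and the inducible chaperone Hspa1b (-0.63). Of 10 glucocorticoid response genes 3 were lower in the age series, Cdkn1a (-1.22), Mt2 (-0.81) and Lcn2 (-1.76). The value of Lcn2 rested on WT1, at 80.1 CPM against 2.40 to 5.66 in all others. Mt2 was highest in WT1 as well, at 198 CPM against 38.6 to 92.5. Of 9 expressed hypoxia genes 2 were lower, Egln3 (-1.33) and Adm (-0.65). Of 14 clock genes 5 were higher in the age series and 0 lower, among them the repressors Cry2 (0.36 ± 0.093) and Per3 (0.33 ± 0.090), Bhlhe41 (0.31 ± 0.11) and the nuclear receptor Nr1d1 (0.29 ± 0.10). The clock genes' median was 0.24.

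Between genotypes these lists gave 3 genes with an unadjusted p under 0.05, all glucocorticoid response genes lower in KO, where 2.09% of all expressed genes reached this level. Lcn2 had a log2 fold change of -2.43 ± 0.78, Pdk4, a brake on glucose oxidation, -1.81 ± 0.70 and the metallothionein Mt1 -0.60 ± 0.22, and none passed after adjustment (adjusted p = 1.00 by edgeR). WT1 had the highest level of all 3, with Mt1 at 239 CPM against 75.8 to 127 and Pdk4 at 147 CPM against 4.52 to 132. The adipocyte markers moved with them. All 8 expressed had lower fitted values in KO, 3 with an unadjusted p under 0.05, and their sum was 610 CPM in WT1 against 26.5 to 351 elsewhere. Their part in these differences was not tested. None of the heat shock, hypoxia or clock genes reached an unadjusted p under 0.05.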

How the data were processed

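The authors aligned 100-nt paired reads and assigned them to genes of Gencode M4 (GRCm38) with RSEM 1.2.19, per the labels and the methods. They deposited an expected count and an FPKM value per gene and library. The expected counts, RSEM's estimates, were rounded. The deposited FPKM values served to order levels between genes. The kit does not mark strand.

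The genes tested had 1 CPM or more in 5 libraries or more. They were fitted with edgeR 4.0.16 in R 4.3.3 (TMM, estimateDisp, glmFit, glmLRT), with genotype alone, with genotype and library series, or with their interaction, and Benjamini-Hochberg adjustment over 15767 genes (threshold 0.1). Libraries were matched to the named columns of the study's table by proportional values over 63 genes (CV of the ratio at most 0.193%, next best column at least 24.5%). CPM uses TMM-scaled totals, log2 CPM a prior count of 2. Exact permutation tests (two-sided) used 462 splits, and correlations 100000 permutations with SciPy 1.17.1. The controls were littermates of KO mice, but litters and days are not given per library, so p-values measure the spread between these samples. Alternatives were DESeq2 1.42.0, the quasi-likelihood test, other scalings and filters, unrounded counts, a threshold of 0.05, each library left out, a block for the replicate number, a term for library series, and each series or genotype alone. The edgeR tests were checked on simulated data with log2 changes of 2, larger than most differences reported here. For the interaction no minimum of recovered genes was asked.

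All 10 members are named, and of each other list the expressed genes with an unadjusted p under 0.05 (at most the 4 smallest in each fit), the 5 genes most like Fos, and markers where a sum is given. Socs3, Jun, Dnajb1, Vegfa, Hsp90aa1 and Pdk1 were named after their values were seen. The members and lists were chosen with earlier results of these data known.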

Additional observations from a re-analysis of the deposited data

Results flagged for a closer look

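In each genotype the highest and the lowest library of every member were compared with the others by Dixon's gap ratio. Of 20 groups tested 5 exceeded the 95% limit, where chance would give about 1 in 20, and all 5 were WT1 as the highest WT library. Since the genes share this library, they are not separate events. WT1 was at 31.7 CPM for Fos, with a gap of 0.716 of the WT range, at 6.03 CPM for Fosb (0.869) and at 44.6 CPM for Egr1 (0.928). It was at 2.63 CPM for Egr2 (0.741) and at 48.9 CPM for Nr4a1 (0.716). The limit for 5 samples is 0.71, so that Fos and Nr4a1 are just past it. No KO library exceeded the limit for any member.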

How the results depend on the processing

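No member was called between genotypes under any alternative, and 3 or 4 were called between series under all but WT libraries alone, where 0 were (275 genes in all, with 2 mouse-number libraries). The count of genotype calls over all genes was 0 with the quasi-likelihood test, 2 with DESeq2, 2 with the filter of 1 count, 10 with series as covariate, 7 in the mouse-number and 38 in the age series alone, and 1 to 11 with each library left out. The interaction gave 0 genes with the quasi-likelihood test, 1 with at least 10 counts in every library, 1 at an adjusted p of 0.05 and, with each library left out, 1 to 226 genes and 0 to 3 members (3 without WT2). Between 0 and 4 correlated pairs passed with each library left out (0 without WT1, 1 without KO5).

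Several log2 values changed sign. Those between genotypes were not called, and between series Fos in KO alone and Egr1 in KO alone, without WT1 and without WT1 and WT4 were called with the new sign. Without TMM factors, KO minus WT was 0.0049 for Nr4a1 and 0.026 for Ier2, and age minus mouse-number 0.016 for Fos and 0.012 for Arc. The latter were 0.0059 and 0.0011 with DESeq2 and 0.014 and 0.0082 with upper-quartile scaling, and Fos was 0.0010 with no genotype term. KO minus WT in the mouse-number series alone was -0.57 for Fos and -0.56 for Fosb, and in the age series alone 0.20 for Egr1, 0.047 for Egr2, 0.43 for Nr4a1, 0.13 for Ier2 and 0.017 for Dusp1. Age minus mouse-number was -0.47 for Nr4a1 in WT alone, and in KO alone 0.53 for Fos and 0.47 for Egr1, both called, 0.47 for Fosb, 0.31 for Egr2 and 0.11 for Arc. The exact permutation p of Ier2 between genotypes was 0.784 with log2(FPKM + 0.1) and 0.788 without TMM factors, and between series that of Fos was 0.905 within genotypes and that of Fosb 0.991 with log2(FPKM + 0.1) and 0.996 without TMM factors, each with the other sign.

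With each library left out, KO minus WT ranged from -0.054 to 0.27 for Fos, -0.078 to 0.45 for Fosb, -0.30 to 0.077 for Junb, -0.56 to 0.020 for Egr1, -1.44 to 0.043 for Egr2, -0.16 to 0.18 for Nr4a1 and -0.096 to 0.13 for Ier2. Age minus mouse-number ranged from -0.15 to 0.24 for Fos, -0.23 to 0.38 for Fosb, -0.28 to 0.35 for Egr1, -1.13 to 0.40 for Egr2, -0.14 to 0.048 for Arc and -0.086 to 0.38 for Nr4a1. The interaction ranged from -0.34 to 3.18 for Egr2, -0.046 to 0.19 for Npas4 and -0.0071 to 0.37 for Arc. The cause was not tested. Without WT1, Ier2 lost its series call and Egr1 gained one, and Dusp1 gained one without KO3.

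Both of the following settings were added after seeing the data. Without WT1 and with series as covariate, KO minus WT was 0.090 for Egr1, 0.15 for Egr2, 0.24 for Nr4a1 and 0.060 for Ier2. Without WT1 and WT4 it was 0.23 for Junb, 0.051 for Egr1, 0.77 for Egr2, 0.11 for Nr4a1 and 0.12 for Ier2, and age minus mouse-number was 0.28 for Fos, 0.39 for Fosb, 0.36 for Egr1 (called), 0.16 for Egr2 and 0.060 for Arc.

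With the replicate number as a block, KO6 left out for want of a same-numbered WT library, 10 genes and 0 members were called, and Ier2 had 0.024. Deviations of 5 same-numbered pairs correlated from -0.332 to 0.633 (3 over 0.1), with a mean of 0.223 against -0.0447 for differently numbered pairs. As 4 of the same-numbered pairs share a series, these values cannot decide whether libraries of the same number were paired. No pairing is stated. The block was fitted for the genotype difference alone. Egr2 rested on 3 to 17 counts outside WT1, where depth limits the precision.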
